A study of Mus musculus with 2 samples.

Results

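The genes described here are 10 regulators of the G1 phase of the cell cycle: the D cyclins Ccnd1, Ccnd2 and Ccnd3, the E cyclins Ccne1 and Ccne2, the cyclin dependent kinase (CDK) inhibitors Cdkn1b, Cdkn1c, Cdkn2a and Cdkn2b, and the growth arrest gene Gas1. They were chosen by name, and all probes that the array files give for these names were taken, 16 probes for the 10 genes among 41084 usable probes and 19698 named genes. NIH3T3, an established line of mouse embryonic fibroblasts, was compared after stable transfection with the plasmid pcDNA3.1 carrying MARVELD1, a small membrane protein, and after stable transfection with pcDNA3.1 alone. Both lines had been selected with G418, to which the plasmid confers resistance, and were grown in medium with 10% fetal bovine serum. Each line was read on 1 single-colour Agilent whole-genome array. The labels do not say whether a line was 1 clone or a pool of clones, and differences between lines and effects of MARVELD1 cannot be told apart.

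D cyclins bind CDK4 and CDK6 when mitogens are present and start the phosphorylation of the retinoblastoma protein, which releases E2F transcription factors. E cyclins then activate CDK2 and drive entry into S phase. Cdkn1b and Cdkn1c encode p27Kip1 and p57Kip2, which bind cyclin-CDK complexes, whereas Cdkn2b and Cdkn2a encode the INK4 inhibitors of CDK4 and CDK6, p15Ink4b and p16Ink4a, Cdkn2a also giving rise to p19Arf, which stabilises p53. NIH3T3 is known to have lost the Ink4a/Arf locus. Gas1 encodes a membrane-anchored protein that was first described in growth-arrested NIH3T3 cells and also acts as a co-receptor in Hedgehog signalling.

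Marveld1 itself, the gene carried by the plasmid, read lower where its name was on the label. The brighter Marveld1 probe read an intensity of 6292.8 on that array and 8724.7 on the empty vector array, and the dimmer one 126.4 and 184.4. Whether these probes read the plasmid's insert is not known, so every direction below rests on the label. The share of spots flagged as well above background was 68.9% for the array labelled MARVELD1 and 68.6% for the empty vector array, and both arrays lay on the same slide and were read in the same scan. Of 8 fibroblast markers all 8 were above background. By their brightest probes 3 of them were at least 2-fold lower on the array labelled MARVELD1 (beside 3.53% of all genes), with log2 differences from -2.10 to 0.25. Other probes above background on both arrays gave -1.60 and -0.33 for Col1a1, -1.61 for Thy1, -2.47 for Fn1 and -0.10 for Col3a1. The epithelial markers Epcam and Cdh1 were not above background. The epithelial marker Krt8, the endothelial markers Pecam1 and Cdh5 and the leukocyte markers Ptprc and Cd68 were above background on at least 1 array. On the array labelled MARVELD1 and the empty vector array, Pecam1 read 43.0 and 31.9, and Ptprc 52.2 and 41.1 by 1 of 4 probes. These lie near the lowest spots flagged as well above background, 38.1 and 36.6. Krt8, Cdh5 and Cd68 read higher. The part of any of these markers in the results was not tested.

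The results turn on a few probes, which differ in whether they gave a signal well above background. Each probe has 60 bases, of which the opening 30 are shown, 5′ to 3′ as designed. They are given for the genes that differed most and for the inhibitors whose probes disagreed or were not flagged as well above background.
Gas1, A_51_P157083: aaagttaccatggtgttgaacaatgcatgt
Ccne2, A_52_P58560: cagctgtcaccagtgtgtaatggaggcatt
Ccne2, A_52_P58558: ataaatgagttttacagaaaagtagtgctg
Ccne1, A_51_P408946: gcatgtcctgccttcatgaactcttatttt
Ccne1, A_52_P796682: ttattgaatgctaagtgttttaactataag
Cdkn1b, A_51_P169173: agtcagcgcaagtggaatttcgactttcag
Cdkn1b, A_52_P673863: attagccaagcaaccataagactctagtca
Cdkn1b, A_51_P146126: ttcattgcctgtgtatgagaaaaacttgga
Cdkn1c, A_51_P339540: cgtagagcagcccacggttttgtggaaatc
Cdkn2a, A_51_P144813: cacttctagcgatgctagcgtgtctagcat
Cdkn2b, A_52_P498241: catgtgtggggattcacctgcaaaatggca

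On both arrays 11 of the 16 probes gave a signal well above background, and 5 did so on neither. The 11 covered 7 genes, namely the 3 D cyclins, both E cyclins, Cdkn1b and Gas1. The remaining 3 genes, Cdkn1c, Cdkn2a and Cdkn2b, had no probe flagged as well above background on either array. Intensities are the scanner program's processed values, background-subtracted and detrended, in arbitrary units. A log2 difference is that of the array labelled MARVELD1 minus the empty vector array, after the 75th percentile of each array was subtracted. A gene is represented by its brightest probe. Intensities of different probes are not set against each other, except beside the negative control probe and the lowest spots flagged as well above background.

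With 1 array per group there is no replicate error and no test. Technical spreads give a scale. The log2 difference at a single spot position varied with an SD of 0.28 among the repeated spots of 175 probes. Different probes of a gene varied with an SD of 0.54 over 5486 genes. The scanner program's own error, given below for probes with 1 spot, covers that spot only.

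By the representative probes, 2 of the 7 measured genes were at least 2-fold lower on the array labelled MARVELD1, Gas1 and Ccne2, and 0 were at least 2-fold higher. Among all 16532 genes above background, 3.53% were lower by that limit and 5.39% higher. That majority turns with the scaling: 891 genes were higher and 584 lower here, but scaling to the array median gave 653 and 723. The corresponding counts were 666 and 704 after quantile normalization, 607 and 757 after lowess, 307 and 421 after normexp background correction, and 479 and 617 by the authors' deposited table. The median difference over all genes was 0.19, and 0.04 to 0.08 under the other scalings. The median of the 7 genes was -0.18, or -0.37 relative to all genes. With a limit of 1.5-fold, Ccne1 joined as the 1 higher member, beside 19.4% of all genes higher and 8.96% lower. With a limit of 3-fold, Gas1 was the 1 lower member, beside 1.31% of all genes lower and 1.21% higher. With 7 genes, nothing is read from these counts about the members as a group.

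**Figure D1:**
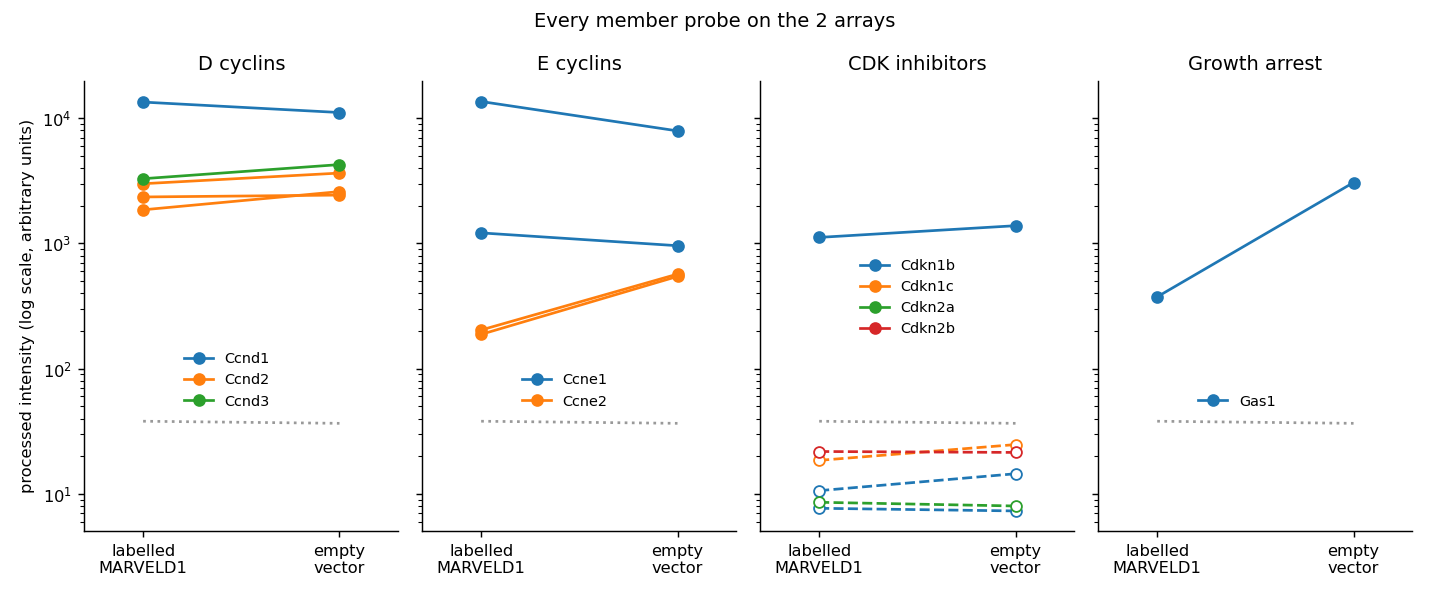
Processed intensity (log axis, arbitrary units) of the 16 member probes on the array labelled MARVELD1 (left in each panel) and the empty vector array (right); each line is 1 probe, filled points were well above background, open points and dashed lines were not, and the dotted line joins the lowest well-measured spot of each array. Gas1 and both Ccne2 probes are clearly lower on the array labelled MARVELD1, and the open points of the inhibitors lie under the dotted line on both arrays.

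The D cyclins differed little. Ccnd1 encodes cyclin D1, the main mitogen-responsive D cyclin of fibroblasts. Its probe (A_51_P262766, mm9 chromosome 7, 152116173 to 152116232) was printed in 10 spots, which read 11886.7 to 15743.0 with a median of 12609.8 on the array labelled MARVELD1 and 9290.8 to 13470.2 with a median of 11028.0 on the empty vector array. The ranges overlapped, but at each of the 10 spot positions the scaled value was higher on the array labelled MARVELD1, by 0.24 to 0.61 in log2. The mean difference was 0.40 or 1.32-fold, and its standard error of 0.034, taken across spot positions, holds no difference between cultures. Relative to the median of all genes it was 0.22, and it ranged down to 0.05 under the other scalings.

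Ccnd2, encoding cyclin D2, had 3 probes spread over the gene. The probe nearest the 3′ end (A_52_P514391, chromosome 6, 127079694 to 127079753) read 2348.0 on the array labelled MARVELD1 and 2429.9 on the empty vector array, a log2 difference of 0.08 that turned negative under every other scaling. The middle probe (A_51_P433228), 9493 bases further towards the 5′ end on the genome, read 2995.3 and 3642.5, a difference of -0.16. The most 5′ probe (A_52_P53906), 19002 bases away, read 1854.0 and 2591.9, a difference of -0.36. The difference thus became more negative towards the 5′ end, by -0.43 from the first probe to the last. The same quantity had a median of -0.28 over 4606 genes with probes at least 500 bases apart, with quartiles of -0.69 and 0.14, so the step within Ccnd2 lies inside the range common to these arrays. The part of this difference along genes in the level of Ccnd2, or of any other member, was not tested.

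Ccnd3, encoding cyclin D3, had a single spot (A_51_P238448, chromosome 17, 47736267 to 47736326). It read 3284.6 on the array labelled MARVELD1 and 4256.7 on the empty vector array. The log2 difference was -0.25 with a program error of 0.20, or -0.44 relative to all genes. Ccnd1 was therefore the D cyclin above the median of all genes and Ccnd2 and Ccnd3 lay below it under each of the scalings, all within 1.5-fold.

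The E cyclins differed in opposite directions. Ccne2, encoding cyclin E2, was lower on the array labelled MARVELD1 by both of its probes, which lie 116 bases apart on chromosome 4. The probe at 11130287 to 11130346 (A_52_P58558) read 203.6 on the array labelled MARVELD1 and 568.8 on the empty vector array, a log2 difference of -1.36 with a program error of 0.21, or 2.56-fold lower. The probe at 11130171 to 11130230 (A_52_P58560) read 187.8 and 544.7, a difference of -1.41 with a program error of 0.22. Both stayed past 2-fold under every scaling, with the smallest difference, -1.15, after normexp correction. Counted from the lowest difference, Ccne2 ranked 321 of 16532 genes.

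Ccne1, encoding cyclin E1, was higher by both probes. The brighter one (A_51_P408946) read 13573.5 on the array labelled MARVELD1 and 7908.3 on the empty vector array, a log2 difference of 0.91 with a program error of 0.20, or 1.87-fold. The other (A_52_P796682) read 1212.8 and 958.6, a difference of 0.47. The files place both at the same 24 bases of chromosome 7 (38882937 to 38882960), although their sequences differ, so their order along the transcript is not known. The 2 probes differed from each other by less than the SD of 0.54 between probes of a gene. Both were positive under every scaling. Counted from the highest difference, Ccne1 ranked 1170 of 16532 genes, and it did not pass 2-fold.

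Among the inhibitors, Cdkn1b alone gave a signal flagged as well above background, and only by 1 of its 3 probes. The probe nearest the 3′ end (A_51_P146126, chromosome 6, 134875215 to 134875274) read 1116.6 on the array labelled MARVELD1 and 1384.4 on the empty vector array. The log2 difference was -0.18 with a program error of 0.20, or -0.37 relative to all genes, and scalings moved it as far as -0.30. The probe 1609 bases upstream (A_52_P673863), annotated to another transcript record than the other Cdkn1b probes, read 7.68 and 7.32. Neither value was well above background. Both are stand-in values that the program put in place of the readings. As such they lay above 6 of 132 control spots on the array labelled MARVELD1 and 2 of 131 on the empty vector array. The probe's background-subtracted intensities, 6.56 and 5.20, lay above every negative control spot. The probe 4113 bases upstream (A_51_P169173, 134871103 to 134871161), printed in 10 spots, was not well above background in any spot either. Its processed intensities ran from 8.31 to 18.6 on the array labelled MARVELD1 and from 9.48 to 23.3 on the empty vector array. Before detrending, 9 of its 10 spots on the array labelled MARVELD1 and 10 of 10 on the empty vector array exceeded the brightest spot of the array's negative control probe. Its median processed intensity lay above 118 of 132 control spots on the array labelled MARVELD1 and above 131 of 131 on the empty vector array. These processed intensities hold stand-in values in 5 of the 10 spots on the array labelled MARVELD1 and 2 of 10 on the empty vector array. A reading of Cdkn1b from these arrays therefore rests on 1 spot of 1 probe.

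Neither the Cdkn2a nor the Cdkn2b probe carried the program's flag for well above background on either array, but their readings differed. The Cdkn2a probe (A_51_P144813, chromosome 4, 88920545 to 88920604) had 10 usable spots on the array labelled MARVELD1 and 8 on the empty vector array, of which 0 and 0 were well above background. In all of these spots the program had put a stand-in value in place of the reading. Their background-subtracted intensities had medians of -3.78 on the array labelled MARVELD1 and -4.99 on the empty vector array, from -9.35 to -0.33 and from -9.30 to 2.54. The negative control probe, with 132 and 131 usable spots, reached at most -0.63 and -2.31, and 1 and 2 Cdkn2a spots lay above that. The deposited p for equality with background gives no direction. It ran from 0.00568 to 0.92 over the Cdkn2a spots of the array labelled MARVELD1, where all background-subtracted intensities were under 0. Each small value there thus belongs to a reading under background. Over the Cdkn2a spots of the empty vector array it ran from 0.00494 to 0.501. Of the 5 probes without the flag, Cdkn2a was the only one with median background-subtracted intensities below 0 on both arrays.

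The Cdkn2b probe (A_52_P498241, chromosome 4, 88952437 to 88952496) was a single spot. It read 21.8 on the array labelled MARVELD1 and 21.4 on the empty vector array, under the lowest well-measured spots of 38.1 and 36.6. Its background-subtracted intensities of 20.8 and 19.6 lay above every negative control spot, and the deposited p for equality with background was 5.43e-09 on the array labelled MARVELD1 and 1.70e-08 on the empty vector array. Cdkn2b was therefore short of the flag and above the spots of the 1 negative control probe, by 1 spot of 1 probe. Every spot of that control probe had a negative background-subtracted intensity. The Cdkn1b probe A_52_P673863, also without the flag, exceeded them all too, at 6.56 on the array labelled MARVELD1 and 5.20 on the empty vector array. Lying above the controls therefore does not settle whether Cdkn2b was expressed. The Cdkn1c probe (A_51_P339540, chromosome 7, 150644753 to 150644812) read 18.5 and 24.8 and likewise lacked the flag on either array. It too lay above all 132 control spots on the array labelled MARVELD1 and all 131 on the empty vector array, with deposited p of 2.05e-06 and 3.69e-09. For these 3 genes no fold is given.

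**Figure D2:**
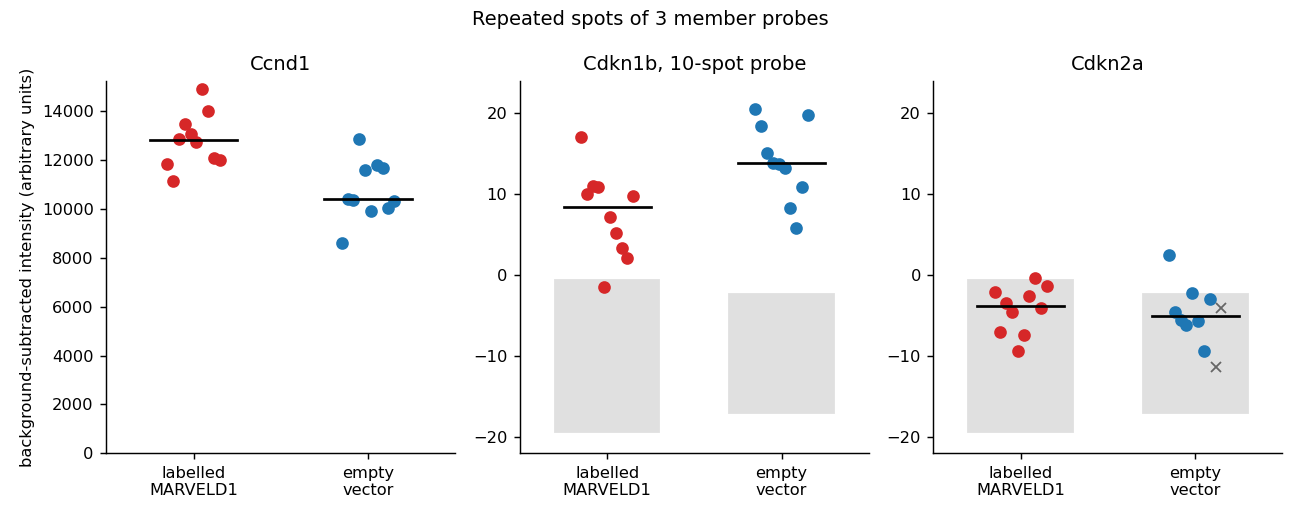
Background-subtracted intensity (linear axis, arbitrary units) of each spot of the 3 member probes printed 10 times, on the array labelled MARVELD1 (left) and the empty vector array (right); black bars are medians, crosses are spots the program flagged as outliers, and grey boxes span the negative control spots of that array. Ccnd1 spots lie far above 0 on both arrays, nearly all Cdkn1b spots lie above the grey boxes, and most Cdkn2a spots lie inside them.

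Of 5 genes around the Cdkn2 locus on chromosome 4, 3 were detected. Mtap, which encodes an enzyme of methionine salvage, read 3529.2 on the array labelled MARVELD1 and 5308.8 on the empty vector array, a log2 difference of -0.46. Klhl9, a ubiquitin ligase adaptor gene, read 173.7 and 276.1, a difference of -0.54, and its second probe gave a bound in the same direction. Elavl2, a neuronal RNA-binding protein gene, read 73.4 and 152.2 by its brighter probe, a difference of -0.93, with a bound in the opposite direction from the dimmer probe. Dmrta1 and the interferon gene Ifne were not above background. By probe start, Ifne (88525626) and Dmrta1 (89360601) lie nearer to Cdkn2a (88920545) than do Klhl9 (88366233) and Elavl2 (90918411). Of the 3 detected neighbours 0 passed 2-fold, beside 3.53% of all genes lower and 5.39% higher, and all 3 lay below the median of all genes.

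Gas1 had the largest difference of the 7 measured genes. Its single spot (A_51_P157083, chromosome 13, 60276399 to 60276458) read 374.4 on the array labelled MARVELD1 and 3062.1 on the empty vector array, both far above the lowest well-measured spots. The log2 difference was -2.90 with a program error of 0.21, or 7.49-fold lower, and it ranked 54 of 16532 genes from the lowest. Scalings moved it between -3.02, by the authors' deposited table, and -2.71, after normexp correction. No second probe bears on it, so the scatter between probes of a gene is unknown for Gas1.

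Other genes named for growth arrest showed smaller differences. The list held Gas2, Gas5, Gas6, Gas7, Gas8 and Pmp22, of which 5 of 6 were above background and 0 passed 2-fold in either direction, beside 3.53% of all genes lower and 5.39% higher. Gas7, which encodes a cytoskeletal protein, read 246.9 on the array labelled MARVELD1 and 507.5 on the empty vector array, a difference of -0.91, and its other probe gave -0.59. Gas2, encoding an actin-associated protein, read 130.3 and 251.8, a difference of -0.82. Pmp22, a membrane protein gene also known as Gas3, gave -0.51. The non-coding RNA gene Gas5 gave -0.13 by its brighter probe and 0.51 by the other, and Gas8 gave 0.16. The median of the 5 was -0.51, or -0.70 relative to all genes, and Gas6 was not above background.

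The wider G1 to S pathway held 29 further genes, among them the CDKs, the retinoblastoma family, the E2F factors and the SCF ubiquitin ligase subunits. Of these 28 were above background. By their brightest probes 0 were higher and 0 lower past 2-fold, beside 5.39% and 3.53% of all genes. Their median difference was 0.16 against 0.19 for all genes, with a range of -0.58 to 0.99. The highest were E2f8, an atypical E2F repressor, at 7006.0 on the array labelled MARVELD1 and 3855.8 on the empty vector array, a log2 difference of 0.99, and Ccna2, encoding the S phase cyclin A2, at 19278.9 and 10704.9, a difference of 0.98. Both lie just under the 2-fold limit. The lowest were Fbxw7, the ubiquitin ligase subunit that marks cyclin E for degradation, at 165.6 and 269.5, a difference of -0.58, and the pocket protein gene Rbl2 at 439.0 and 665.1, a difference of -0.47 with -1.12 by its other probe.

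The CDK inhibitors outside the 10 genes, named here for their family after their values had been seen, were all above background. Cdkn1a, encoding p21Cip1, read 9147.5 on the array labelled MARVELD1 and 11192.4 on the empty vector array, a log2 difference of -0.16. Cdkn2c, encoding p18Ink4c, read 9817.9 and 14205.2 by its brighter probe, a difference of -0.41 with -0.35 by the other. Cdkn2d, encoding p19Ink4d, read 1479.0 and 879.7, a difference of 0.88 from a single spot. The INK4 genes flagged as well above background were thus Cdkn2c and Cdkn2d, and they differed in opposite directions.

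**Figure D3:**
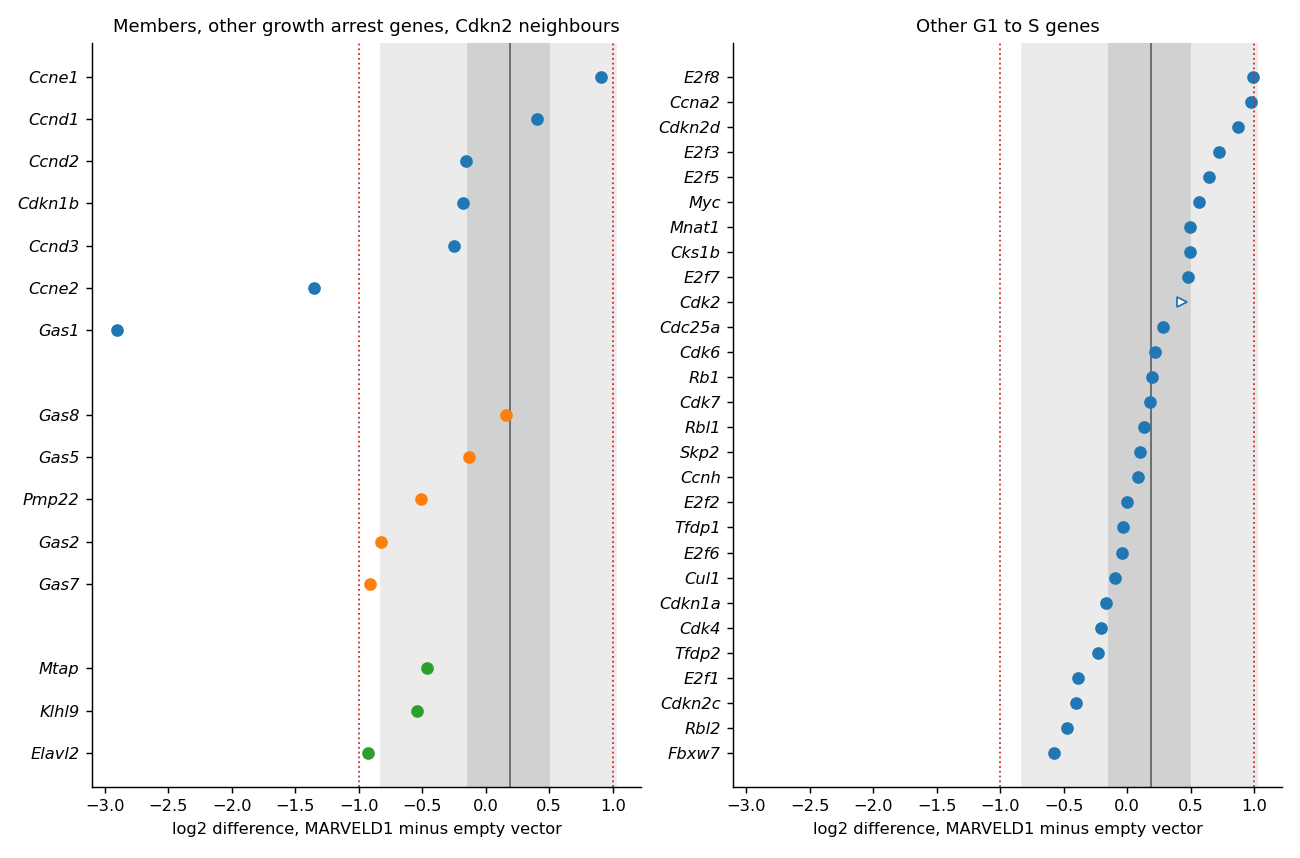
Log2 difference, array labelled MARVELD1 minus empty vector array, for the 7 measured members (blue), other growth arrest genes (orange) and neighbours of the Cdkn2 locus (green) on the left, and for 28 other G1 to S genes on the right, each by its brightest probe; the open triangle (Cdk2) is a lower bound, dark and light grey bands span the central 50% and 90% of all genes, the solid line is their median and dotted lines mark 2-fold. Gas1 and Ccne2 alone lie beyond the lower 2-fold line, and no gene shown lies beyond the higher one.

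The order of the members was similar under each normalization. Gas1 was lowest and Ccne2 next under each of the 6 settings, and the brighter Ccne1 probe was highest. The Ccnd1 difference ran between 0.40 and 0.12 and that of the brightest Ccnd2 probe between -0.35 and -0.16.

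**Figure D4:**
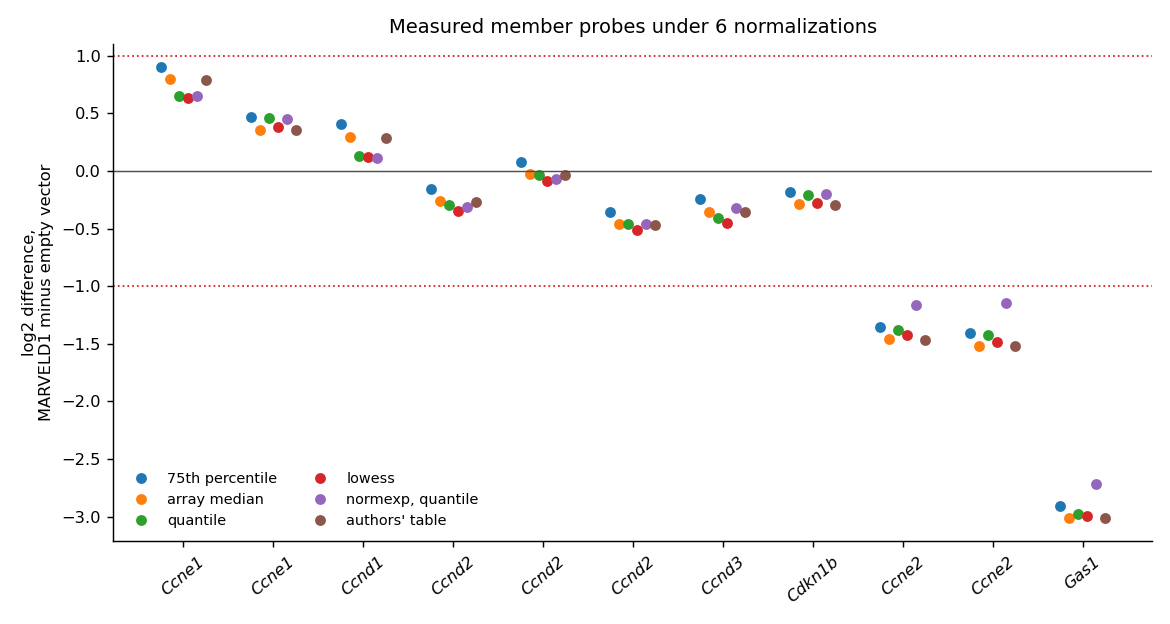
Log2 difference, array labelled MARVELD1 minus empty vector array, of the 11 measured member probes under 6 normalizations, 1 column of points per probe and 1 colour per setting; dotted lines mark 2-fold. The Gas1 points lie between -3.02 and -2.71 and the Ccne2 points between -1.52 and -1.15, whereas the points of 1 Ccnd2 probe lie on both sides of 0.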

How the data were processed

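Each array's scanner file was deposited by the authors with the fluorescence intensity of each spot, background-subtracted and detrended within the array by Agilent Feature Extraction 9.5.3.1, per the file headers, with no scaling between arrays. The program's p-value for each spot against its background is also deposited and was not used for calls. The authors' deposited table of normalized intensity covers 26851 probes. Each column is close to the processed intensity divided by 1 factor, and its scaling method is not given in the sources used here.

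Control spots and outlier spots were left out, and 0 spots were saturated. The log2 intensity minus the array's 75th percentile was then averaged for each probe over its usable spots. A probe counted as above background where most of its usable spots carried the program's flag, and a gene where at least 1 probe did so on at least 1 array. Member probes were taken by the files' gene names, and other genes were named through RefSeq (GRCm38.p6) by accession (24802 probes), symbol (6030) or a unique older name (1808), leaving 8444 unnamed. Coordinates are the files', on mm9, and without an annotation of that build exons and untranslated regions are not stated. Where 1 array was below background, a bound against the lowest well-measured probe is given. The 2-fold limit is one of size. The calculation was run on simulated arrays with known changes. Their noise was set below the spread of the repeated spots, so that run says nothing about the reliability of single-spot differences.

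The members, lists, alternatives and rule for named genes were chosen with earlier results of these data known. The rule names all members, every growth arrest and neighbouring gene and the 2 highest and 2 lowest genes of the pathway list. It also names the 3 genes nearest to Gas1 in level, which are left out because levels of different probes cannot be compared. Alternatives were array median scaling, quantile normalization, lowess, normexp with an offset of 50 (limma 3.58.1), other filters on dim probes, other rules for several probes, the authors' table and other fold limits.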

Additional observations from a re-analysis of the deposited data

How the results depend on the processing

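Of 63 values of the 7 measured members under 9 alternatives, 24 equal the reported one because the setting leaves the chosen probe and its scaling as they were. Of the 39 that differ, 1 moved by more than the spread of single spots (an SD of 0.28), Ccnd1, at 0.12 after normexp correction. Ccnd2 turned positive, at 0.08, when the most 3′ probe stood for the gene. The counts of members past 2-fold, 0 higher and 2 lower, held under all 9. With a limit of 1.5-fold 1 member was higher, Ccne1, and with 3-fold 1 was lower, Gas1. Of the 28 pathway genes above background 5 were higher at 1.5-fold, beside 19.4% of all genes. Of all genes, 307 were at least 2-fold higher after normexp correction and 479 by the authors' deposited table. At 1.5-fold 3210 were higher and 1482 lower, and at 3-fold 200 and 216. No paired analysis was possible because each group has 1 array. The number of arrays, 1 per group, limits everything above, and signal over background limits Cdkn1b, Cdkn1c, Cdkn2a and Cdkn2b. The most 5′ probe minus the most 3′ probe had a median of -0.28 over 4606 genes, and its part in the members was not tested.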

Other observations

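Several genes of the pathway list had probes that disagreed. For Cul1, the scaffold of the SCF ubiquitin ligase, 2 probes gave log2 differences of -0.10 and -0.03 and the remaining one gave 1.66. For E2f3, an activator of S phase genes, the brightest probe gave 0.72 and the others 0.10 and -0.47. For Ccnh, a subunit of the CDK-activating kinase, the probes ran from -0.89 to 0.25. For Tfdp2, the brightest probe gave -0.23 and another 0.19. The remaining Tfdp2 probe, not above background on the array labelled MARVELD1, gave a bound of -1.51. These genes were picked after their values had been seen, and no cause was tested.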
